A study of Homo sapiens with 6 samples.

Results

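The menthol- and cold-gated channel gene TRPM8 and 9 other genes of calcium entry were followed in the prostate cancer cell line C42, also spelled C4-2, a human LNCaP derivative. Cells of the first group held a control hairpin (shCTR) and those of the second a hairpin directed at NSD2 (shNSD2). The members were the rows of the gene count table with the symbols TRPM8, TRPM4, TRPM7, TRPV6, TRPC1, ORAI1, ORAI2, ORAI3, STIM1 and STIM2, so 10 of 31413 genes. NSD2, also named WHSC1, encodes a histone methyltransferase that dimethylates lysine 36 of histone H3. The series title names NSD2 and immune infiltration of prostate tumours as its subject. Both groups were grown in RPMI medium with serum and antibiotics, and each held 3 libraries of polyadenylated RNA, with the numbers 1, 2 and 4 in shCTR against 1, 2 and 3 in shNSD2. The labels give neither the hairpin sequence nor whether each library had its own culture. P-values then measure only the spread between libraries, which may be technical, and the groups stand for 1 cell line. The gene list was drawn up with the difference between shNSD2 and shCTR in these libraries known. The values of the members in this comparison, and whether each was called, are therefore a description. No p-value is printed for them.

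Calcium enters epithelial cells through several families of channels. Transient receptor potential (TRP) channels respond to temperature, ligands, lipids or intracellular calcium. Store-operated entry begins when the endoplasmic reticulum runs low in calcium: STIM proteins in its membrane sense the loss and open ORAI pores in the plasma membrane. In prostate epithelium, TRPM8 is known as a gene that responds to androgens, and TRPV6 and ORAI1 have been studied in prostate cancer growth and survival.

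Total counts ran from 19412896 to 20665494 per library. CPM are counts scaled to the library's total over the genes that passed a low-count filter, and by the TMM factors of edgeR. NSD2 itself was at 200.1 to 223 CPM in shCTR and at 85.3 to 89.7 CPM in shNSD2, which is 40.7% of the control mean. The luminal prostate markers KLK2, KLK3, HOXB13, FOLH1, KRT8 and KRT18 were all present, the lowest at 205 CPM. KLK3, the most abundant of them, was at 6382 to 7038 CPM in shCTR and 5590 to 6021 CPM in shNSD2. Of 3 basal markers only KRT14 had a row (0.561 to 1.61 CPM), and the 3 leukocyte, fibroblast and endothelial markers with a row, of 8 listed, never passed 3 counts in a library. PRPH, a marker of sensory neurons, was at 2.10 to 2.51 CPM in shCTR and 4.67 to 5.24 CPM in shNSD2. The part of PRPH in the results below was not tested. In bulk RNA, fewer cells of a type and less RNA per cell cannot be told apart.

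Of the 10 members, 9 passed the low-count filter and 4 were called by edgeR's quasi-likelihood test at an adjusted p under 0.05, 3 of them lower in shNSD2 (TRPM8, STIM2 and TRPM7) and 1 higher (ORAI3). Over all 17160 genes tested 30.7% were called, 15.2% lower and 15.5% higher. TRPC1 did not pass the filter and was not tested. The median log2 fold change of the 9 tested members was -0.11, against 0.01 over all genes tested. The members lie on 9 chromosomes, with TRPV6 and ORAI2 both on chromosome 7. The 3 lower members span 102 kb (TRPM8), 134 kb (TRPM7) and 168 kb (STIM2), and ORAI3 spans 7.40 kb. Of the members not called, STIM1 spans 239 kb, TRPM4 54.1 kb, ORAI2 23.7 kb, ORAI1 16.1 kb and TRPV6 14.6 kb. The untested TRPC1 spans 83.8 kb. Whether span goes with direction was not tested.

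The start regions of the 4 called members are shown because these genes moved in different directions, and because they differ in base composition. Each is the RefSeq window (GRCh38.p14) of 250 bases before to 50 bases after a transcription start, read 5′ to 3′ on the gene's own strand. Capitals mark every match on either strand to 3 motifs. The TATA-type sequence TATAAA reads TTTATA from the other strand. The hexamer TGTTCT reads AGAACA from the other strand. The GC box GGGCGG reads CCGCCC from the other strand. The TRPM8 window lies at chr2:233917123-233917422 (plus strand), STIM2 at chr4:26860591-26860890 (plus strand), TRPM7 at chr15:50686748-50687047 (minus strand) and ORAI3 at chr16:30948818-30949117 (plus strand).
TRPM8: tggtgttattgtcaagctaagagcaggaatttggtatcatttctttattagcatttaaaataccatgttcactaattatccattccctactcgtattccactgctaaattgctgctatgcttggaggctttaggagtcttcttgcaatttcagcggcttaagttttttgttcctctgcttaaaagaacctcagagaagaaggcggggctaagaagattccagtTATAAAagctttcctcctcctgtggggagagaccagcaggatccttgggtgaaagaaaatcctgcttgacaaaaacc
STIM2: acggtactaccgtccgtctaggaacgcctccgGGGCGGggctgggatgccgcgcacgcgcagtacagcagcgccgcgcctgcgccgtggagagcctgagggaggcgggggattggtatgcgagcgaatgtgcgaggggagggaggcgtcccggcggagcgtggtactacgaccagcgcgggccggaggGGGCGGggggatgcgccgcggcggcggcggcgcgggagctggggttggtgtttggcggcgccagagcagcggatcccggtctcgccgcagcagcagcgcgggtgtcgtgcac
TRPM7: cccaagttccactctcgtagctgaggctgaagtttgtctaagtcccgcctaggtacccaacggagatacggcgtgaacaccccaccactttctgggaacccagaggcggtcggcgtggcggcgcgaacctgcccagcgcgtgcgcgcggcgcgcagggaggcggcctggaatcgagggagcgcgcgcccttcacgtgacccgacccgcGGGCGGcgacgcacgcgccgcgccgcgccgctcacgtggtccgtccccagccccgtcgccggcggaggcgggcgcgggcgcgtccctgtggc
ORAI3: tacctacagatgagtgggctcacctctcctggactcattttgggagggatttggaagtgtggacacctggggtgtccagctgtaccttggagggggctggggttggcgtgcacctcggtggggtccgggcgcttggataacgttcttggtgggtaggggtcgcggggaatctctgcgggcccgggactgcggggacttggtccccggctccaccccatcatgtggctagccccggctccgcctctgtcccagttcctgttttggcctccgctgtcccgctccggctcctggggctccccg

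The TRPM8 window was AT-rich, with 41.0% G and C, and held 3 CG dinucleotides and 1 TATAAA that begins 27 bases before the start. The windows of STIM2 and TRPM7 were rich in G and C (74.7% and 73.3%) and held 45 and 48 CG dinucleotides. ORAI3 stood between them at 65.7% and 17 CG dinucleotides, with no match to any of the motifs. Over 34943 windows of the same length, the median was 58.7% G and C with 14 CG dinucleotides, and 11.6% held TATAAA, 14.8% TGTTCT and 44.9% GGGCGG. STIM2 held 2 matches to GGGCGG and TRPM7 held 1, while TGTTCT had no match in any of these 4 windows. RefSeq lists 6 windows for TRPM8, and the one nearest the annotated gene start was taken. For STIM2 it lists 1 window, which begins at 26860591, downstream of the annotated gene start at 26857678. A match describes letters and not a binding site, and the deposited counts do not show which start was used.

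TRPM8, the cold and menthol receptor channel, had the highest mean level per kb of the members in the controls and the largest difference. It was at 357 CPM in shCTR 1, 279 CPM in shCTR 2 and 150.1 CPM in shCTR 4, and at 79.9, 76.1 and 73.4 CPM in shNSD2 1, 2 and 3. All 3 knockdown libraries were below all 3 controls, and the controls themselves differed widely, with shCTR 4 under the others. The mean and SD over 3 libraries were 262 ± 104 CPM in shCTR and 76.5 ± 3.27 CPM in shNSD2, a log2 fold change of -1.78 (SE 0.243), or 3.42-fold lower. Its coefficient of variation was 39.9% among the controls and 4.27% among the knockdown libraries. Of the 17160 tested genes, 137 had a log2 fold change as low or lower, TRPM8 included. TRPM8 was listed with this difference known, so its rank is a description. On a log2 scale shCTR 4 stood at 52.5% of the way from shCTR 1 and 2 to the knockdown libraries. Without shCTR 4 the log2 fold change of TRPM8 was -2.05, and without shCTR 1 it was -1.50. Why shCTR 4 stood apart from the other controls was not tested. TRPM8 (ENSG00000144481) lies on chromosome 2 of GRCh38 from 233917398 to 234019522, on the plus strand.

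**Figure D1:**
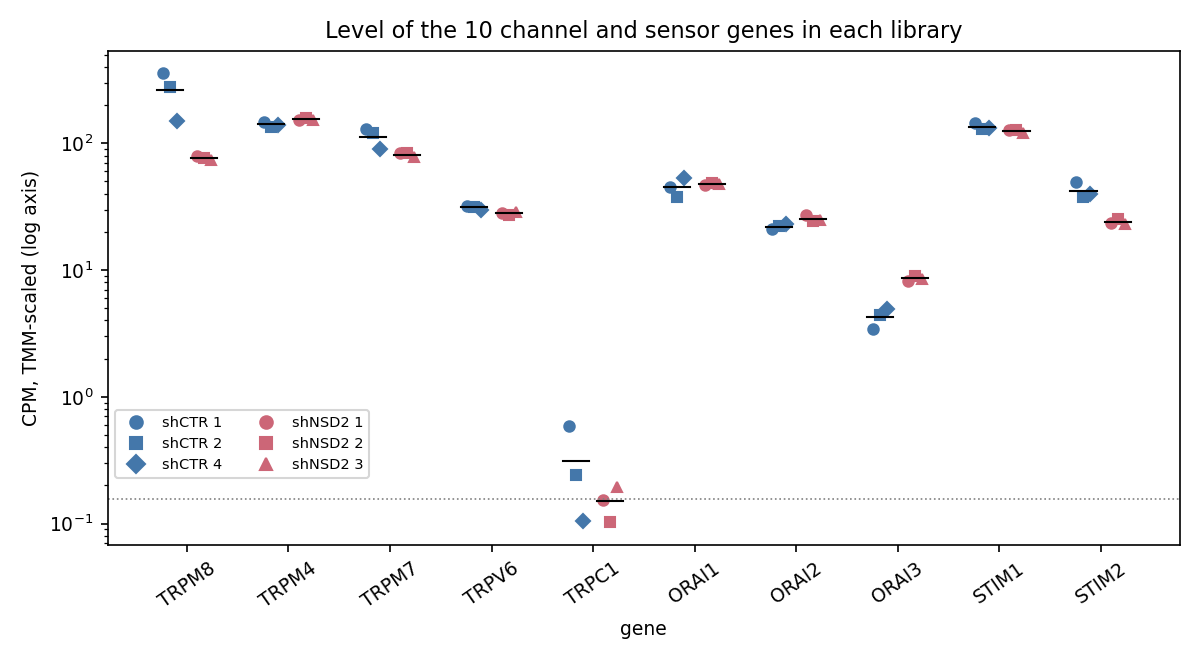
Level of each of the 10 genes in each library, in TMM-scaled CPM on a log axis, with 3 shCTR (blue) and 3 shNSD2 (red) libraries and the group mean as a bar. The dotted line is the highest value that 3 counts take in a library. TRPM8 spans 150.1 to 357 CPM in shCTR and 73.4 to 79.9 CPM in shNSD2, and TRPC1 lies near the line.

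TRPM4 carries monovalent cations and is opened by intracellular calcium, so it limits rather than admits calcium. It was at 147, 134 and 140 CPM in shCTR 1, 2 and 4 and at 152, 158 and 154 CPM in the knockdown libraries. The groups did not overlap but lay close together (141 ± 6.55 against 155 ± 3.44 CPM, SD, n = 3), and TRPM4 was not called, with a log2 fold change of 0.14 (SE 0.0833). In the controls TRPM8 counts exceeded TRPM4 counts 2.42-fold in shCTR 1, 2.08-fold in shCTR 2 and 1.07-fold in shCTR 4, and in the knockdown libraries the ratio was 0.527, 0.481 and 0.478. This ratio compares CPM of genes of different length and describes only its movement between libraries. TRPM4 (ENSG00000130529) lies on chromosome 19 from 49157741 to 49211836.

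TRPM7, a channel fused to a kinase that passes magnesium, zinc and calcium, was at 129 CPM in shCTR 1, 119.7 CPM in shCTR 2 and 89.8 CPM in shCTR 4. In shNSD2 it was at 83.1, 83.1 and 77.8 CPM. The groups did not overlap, but shCTR 4 lay at 76.5% of the log2 shift. The mean went from 113 ± 20.5 to 81.3 ± 3.03 CPM (SD, n = 3), a log2 fold change of -0.47 (SE 0.124), and -0.61 without shCTR 4. The call of TRPM7 was lost without shCTR 2, shNSD2 1, shNSD2 2 or shNSD2 3 (log2 fold changes of -0.43, -0.48, -0.48 and -0.44), and after a correction for GC content and exon length the log2 fold change was -0.20, also not called. Its longest transcript has 39.6% G and C and its exons cover 12.4 kb, the longest of the members. TRPM7 (ENSG00000092439) lies on chromosome 15 from 50552473 to 50686815, on the minus strand.

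TRPV6, an epithelial channel highly selective for calcium, was at 32.3, 31.5 and 29.7 CPM in the controls and at 28.4, 27.4 and 28.6 CPM in the knockdown libraries. The groups were separated by about 1 CPM and TRPV6 was not called (log2 fold change -0.15, SE 0.0836). The sign turned to 0.0041 with the GC and length correction. Its neighbour and close relative TRPV5 had at most 1 count in a library. TRPC1, a non-selective channel linked to store-operated entry, had 12, 5 and 2 counts in shCTR 1, 2 and 4 and 3, 2 and 4 counts in shNSD2. The low-count filter left it out of the test. Without that filter TRPC1 had a log2 fold change of -1.03 and was not called. TRPV6 (ENSG00000165125) lies on chromosome 7 from 142871203 to 142885762 on the minus strand, and TRPC1 (ENSG00000144935) on chromosome 3 from 142724074 to 142807888.

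The store sensors STIM1 and STIM2 differed from each other. STIM2, which senses small losses of stored calcium and sustains basal entry, was at 49.1, 37.5 and 39.5 CPM in shCTR 1, 2 and 4 and at 23.7, 25.3 and 23.3 CPM in the knockdown libraries. The groups were well apart, and shCTR 4 lay with the other controls, at 14.3% of the shift. The mean went from 42.03 ± 6.20 to 24.1 ± 1.05 CPM (SD, n = 3), a log2 fold change of -0.80 (SE 0.112), or 1.75-fold lower, and -0.85 without shCTR 4. STIM1, the main sensor of deep store depletion, was at 144, 129 and 132 CPM in shCTR and at 128, 128 and 119 CPM in shNSD2. Its groups were next to each other without overlap (135 ± 7.77 against 125 ± 4.81 CPM, SD, n = 3), and it was not called (log2 fold change -0.11, SE 0.0857). STIM1 counts were 2.93, 3.45 and 3.34 times those of STIM2 in the controls and 5.40, 5.06 and 5.13 times in the knockdown libraries. STIM2 (ENSG00000109689) lies on chromosome 4 from 26857678 to 27025381, and STIM1 (ENSG00000167323) on chromosome 11 from 3854527 to 4093210.

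Among the pore genes, ORAI3 was the one that was called, and it was higher in shNSD2. ORAI3, which can join ORAI1 in mixed channels, was at 3.42, 4.39 and 4.95 CPM in shCTR 1, 2 and 4, or 70, 91 and 95 counts, and at 8.26, 9.04 and 8.44 CPM in shNSD2, or 162, 176 and 174 counts. Every knockdown library was above every control, with shCTR 4 at 30.1% of the shift. The mean went from 4.25 ± 0.773 to 8.58 ± 0.407 CPM (SD, n = 3), a log2 fold change of 1.01 (SE 0.155), or 2.02-fold higher. Of its exon bases, 52.9% are shared with AC135048.1, a non-coding gene on the same strand, so its counts depend on how the authors' counting treated shared bases, which is not given in the sources used here. ORAI3 (ENSG00000175938) lies on chromosome 16 from 30949066 to 30956461.

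ORAI1, the principal pore of store-operated entry, was at 45.04, 37.6 and 53.2 CPM in shCTR 1, 2 and 4 and at 46.9, 49.04 and 47.9 CPM in shNSD2. The controls spanned the whole range of the knockdown libraries, and shCTR 4 had the highest level of the 6. Its log2 fold change was 0.08 (SE 0.116), was not called, and turned negative with the GC and length correction (-0.15) and without shCTR 2 (-0.034). ORAI2, a related pore that lowers the current of ORAI1 in mixed channels, was at 21.1, 22.2 and 22.9 CPM in shCTR and at 27.03, 24.5 and 24.9 CPM in shNSD2. The ORAI2 groups did not overlap, but the gene was not called (log2 fold change 0.21, SE 0.0898). Of its exon bases, 5.26% overlap ALKBH4 on the opposite strand. ORAI1 (ENSG00000276045) lies on chromosome 12 from 121626550 to 121642677, and ORAI2 (ENSG00000160991) on chromosome 7 from 102433106 to 102456821.

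**Figure D2:**
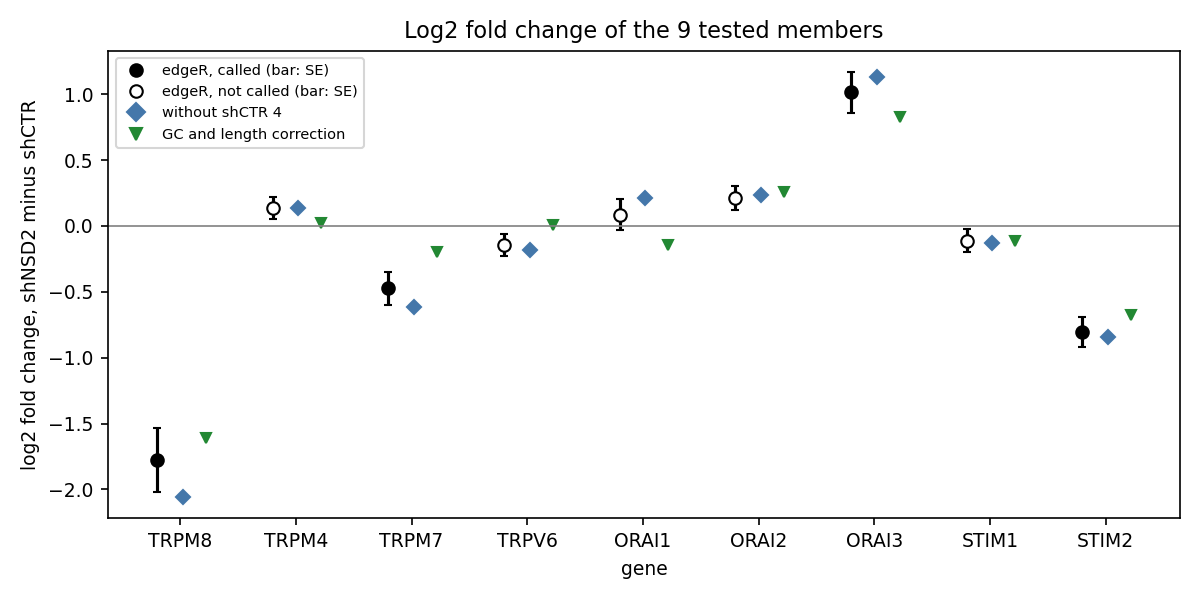
Log2 fold change (shNSD2 minus shCTR) of the 9 tested members from edgeR with its SE as a bar (filled where called), beside the values without shCTR 4 and after the GC and length correction. TRPM8 (-1.78), STIM2 (-0.80) and ORAI3 (1.01) stay on their side of 0 in all 3 fits, while ORAI1 and TRPV6 change sign with the correction.

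The 8 members whose groups did not overlap (TRPM8, TRPM4, TRPM7, TRPV6, ORAI2, ORAI3, STIM1 and STIM2) compare with 46.8% of all genes tested. Of these, 5 were lower in shNSD2, against 22.8% of all genes, and 3 were higher, against 24%. The spread among the controls exceeded that among the knockdown libraries for 9 of the 10 members, ORAI2 being the exception. The coefficient of variation was above 14% in shCTR for TRPM8, TRPM7, ORAI1, ORAI3, STIM2 and TRPC1, and at most 5.29% in shNSD2 for every member but TRPC1 (30.5%).

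Levels of different genes were compared as CPM per kb of merged exon, which understates genes with long alternative exons. In the controls TRPM8 came first at 33.1 ± 13.2 CPM per kb, but its range (18.99 to 45.2) covered those of TRPM4 (21.3 ± 0.992 CPM per kb) and overlapped those of ORAI1 (20.01 ± 3.44) and STIM1 (18.96 ± 1.09), so the order of these 4 was not resolved. TRPM7 followed at 9.10 ± 1.65 CPM per kb and STIM2 at 6.08 ± 0.897, and their libraries did not overlap. TRPV6 was at 2.61 ± 0.110 CPM per kb, ORAI2 at 1.99 ± 0.0821, ORAI3 at 1.61 ± 0.293 and TRPC1 at 0.0652 ± 0.0522 (SD, n = 3 each). In shNSD2 the order began with TRPM4 (23.4 ± 0.521 CPM per kb), ORAI1 (21.2 ± 0.469) and STIM1 (17.5 ± 0.675), whose libraries did not overlap, and TRPM8 came next at 9.68 ± 0.413. STIM2 (3.48 ± 0.153 CPM per kb) and ORAI3 (3.25 ± 0.154) overlapped there, as did TRPV6 (2.36 ± 0.0525) and ORAI2 (2.30 ± 0.122).

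The make-up of the store-operated channel genes is described by shares within each family. STIM2 made up 24.2% ± 1.60 of the summed STIM level per kb in shCTR, with 23.01% to 26.03% in single libraries, and 16.6% ± 0.462 in shNSD2, with 16.1% to 16.9% (SD, n = 3). ORAI3 made up 6.87% ± 1.29 of the summed ORAI level in shCTR and 12.1% ± 0.340 in shNSD2, and ORAI1 made up 84.6% ± 2.30 and 79.3% ± 0.375. The summed STIM level was 25.04 ± 1.99 CPM per kb in shCTR and 21.02 ± 0.785 in shNSD2, without overlap. The summed ORAI level was 23.6 ± 3.61 CPM per kb in shCTR and 26.7 ± 0.516 in shNSD2, and its groups overlapped because shCTR 4 held 27.4 CPM per kb. These shares follow from the same counts as the members' changes and add no separate evidence.

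**Figure D3:**
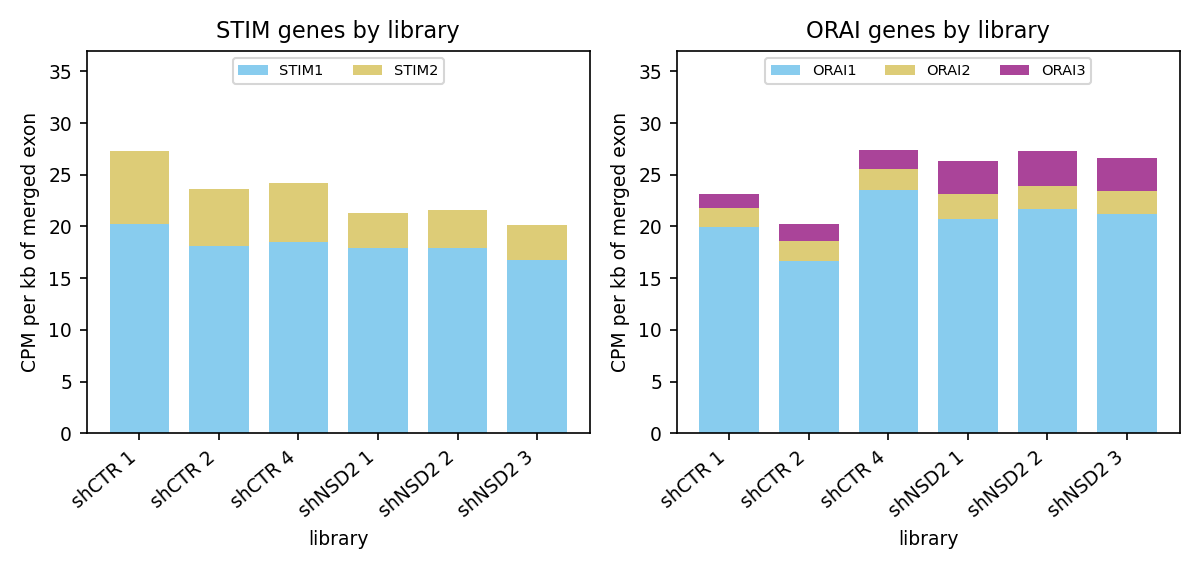
CPM per kb of merged exon for the STIM genes (left) and the ORAI genes (right) in each of the 6 libraries, stacked by gene from 0. The STIM2 part shrinks from 24.2% to 16.6% of the STIM sum and the ORAI3 part grows from 6.87% to 12.1% of the ORAI sum between the group means.

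The 5 protein-coding genes whose pattern over the 6 libraries was most like that of TRPM8, out of 10431 with a mean of at least 5 CPM, were GPER1, NRP1, LGR4, FAT1 and ADAMTS3. Likeness was the root mean square difference in log2(CPM + 0.5) after centring each gene on its mean, and it was 0.104 for GPER1, which encodes a membrane estrogen receptor, and 0.157 for the semaphorin and VEGF co-receptor gene NRP1. It was 0.166 for LGR4, a receptor for R-spondins, 0.172 for the cadherin gene FAT1 and 0.177 for the metalloprotease gene ADAMTS3. GPER1 was at 53.8, 38.5 and 19.3 CPM in shCTR 1, 2 and 4 and at 9.23, 9.40 and 8.97 CPM in shNSD2. Like TRPM8, GPER1 had its lowest control level in shCTR 4, as did the other 4 genes. All 6 libraries enter this measure, and genes were picked by it, so it is a description with no test.

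**Figure D4:**
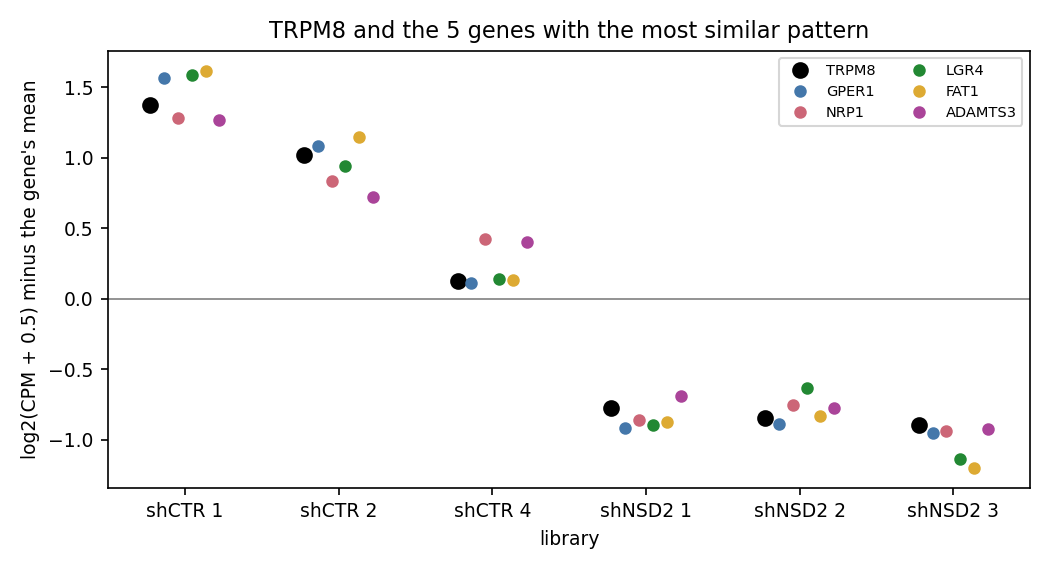
Log2(CPM + 0.5) of TRPM8 and of the 5 most similar genes in each library, each centred on its own mean over the 6 libraries. All 6 genes are above 0 in the controls, lowest among them in shCTR 4, and below 0 in the knockdown libraries.

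The other genes of calcium signalling were taken from 11 lists that together hold 152 entries, of which 144 had a row and 96 were tested. The lists were drawn up with earlier results of these data known. Their shares and the adjusted p-values of genes named from them are therefore a description. By edgeR's quasi-likelihood test 40 of the 96 were called, 16 higher and 24 lower, which is 41.7% against 30.7% of all genes tested. Their median log2 fold change was 0.01, as over all genes. With the GC and length correction 22 were higher and 16 lower, so the balance turned. The count was 62 without shCTR 4, 22 without shCTR 1, shCTR 2 or shNSD2 1, 26 without shNSD2 2 and 18 without shNSD2 3. Leaving out a library also lowers the power of the fit. The counts of single lists below stand beside 30.7% called, 15.2% lower and 15.5% higher, over all genes tested, and several lists lie near these shares.

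Among the other TRP channels 4 of 7 tested members were called, each of them lower, against 15.2% lower over all genes. PKD2, a polycystin cation channel of primary cilia and the endoplasmic reticulum, fell from 30.9 ± 5.78 to 17.8 ± 1.01 CPM (SD, 3 libraries each; adjusted p from edgeR = 0.00290). The warmth-gated channel gene TRPV3 fell from 6.28 ± 1.04 to 3.70 ± 0.883 CPM (SD, 3 libraries each; adjusted p from edgeR = 0.0177), and the lysosomal channel gene MCOLN2 fell by 0.57 on the log2 scale (adjusted p from edgeR = 0.0386). PKD2 was called whichever library was left out. The call of TRPV3 was lost without shCTR 1, shNSD2 1 or shNSD2 3 (adjusted p from edgeR = 0.0526 to 0.0632). MCOLN2 had 7.30 CPM in shCTR 4, within the knockdown range of 6.21 to 7.80 CPM, and its call held in 1 of the 6 such fits, the one without shCTR 4 (0.0517 to 0.142 in the others). Counts of lower members ran from 1 to 5 in these fits.

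Voltage-gated calcium channel subunits held 3 higher and 1 lower of 7 tested members. CACNA1H, a T-type pore subunit that opens at low voltage, was at 20.1, 21.2 and 16.2 CPM in shCTR 1, 2 and 4 and at 39.6, 33.9 and 32.3 CPM in shNSD2. It rose 1.84-fold, from 19.2 ± 2.604 to 35.3 ± 3.86 CPM (SD, 3 libraries each; adjusted p from edgeR = 0.00140). The auxiliary subunit gene CACNA2D2 rose from 7.49 ± 0.599 to 10.6 ± 0.499 CPM (SD, 3 libraries each; adjusted p from edgeR = 0.0124). The L-type pore gene CACNA1D fell from 3.09 ± 1.03 to 1.32 ± 0.420 CPM (SD, 3 libraries each; adjusted p from edgeR = 0.0150), a call lost without shCTR 2, shNSD2 1 or shNSD2 3 (0.0514 to 0.0581). For CACNA1H and CACNA2D2 the call held whichever library was left out, and shCTR 4 lay on the far side of the other controls from the knockdown libraries. Of 5 tested P2X and Piezo channels 1 was called, the ATP-gated channel gene P2RX2, with 10 to 14 counts in shCTR and 21 to 30 in shNSD2 (adjusted p from edgeR = 0.0242). Its call was kept only by the fit without shCTR 4 among those that left out a library (0.0502 to 0.0899 in the others), and was lost with DESeq2, the replicate block and the GC and length correction.

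Among the channels that release stored calcium 3 of 7 tested members were called, each of them lower. RYR3, a ryanodine receptor, fell 2.62-fold from 6.79 ± 1.97 to 2.597 ± 1.05 CPM (SD, 3 libraries each; adjusted p from edgeR = 0.00631), and the call held whichever library was left out. ITPR2, an inositol trisphosphate receptor, fell by 0.78 and RYR2 by 0.36 on the log2 scale (adjusted p from edgeR = 0.0329 and 0.0339). ITPR2 had 8.55 CPM in shCTR 4, inside the knockdown range, and its call remained in 1 of the 6 fits without a library, the one without shCTR 4 (0.0557 to 0.125 in the others). The call of RYR2 was lost without shCTR 1, shCTR 2, shNSD2 1 or shNSD2 3 (0.0876 to 0.121). With the GC and length correction the log2 fold change of RYR2 was -0.10, and neither ITPR2 nor RYR2 was called. Counts of lower members ran from 1 to 5 with a library left out. RYR1, the ryanodine receptor of skeletal muscle, had 1, 3 and 2 counts in shCTR 1, 2 and 4 and 14, 11 and 10 counts in shNSD2, and did not pass the filter. The 8 alternatives that tested RYR1 each called 1 member of this list higher.

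Phospholipase C enzymes make the messenger that opens inositol trisphosphate receptors, and of 11 tested isoforms 2 were higher and 3 lower. With the GC and length correction 3 were higher and 1 lower, so the balance turned, and with a library left out 1 to 3 were higher and 2 to 4 lower. PLCD1 rose from 9.55 ± 0.987 to 15.6 ± 0.542 CPM, PLCB1 fell from 21.3 ± 1.88 to 15.2 ± 0.435 CPM and PLCD4 fell from 6.83 ± 1.99 to 3.64 ± 0.383 CPM (SD, 3 libraries each; adjusted p from edgeR = 0.00248, 0.00654 and 0.0122). These 3 calls held whichever library was left out. With the GC and length correction the log2 fold change of PLCB1 was -0.19 and its call was lost.

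Regulators of store-operated entry were split, with 2 higher and 2 lower of 10 tested. With a library left out the list held 0 to 2 higher and 0 to 2 lower members, with none called without shNSD2 3, and with the GC and length correction 3 were higher and 1 lower. HOMER3, a scaffold of calcium signalling complexes, rose from 6.55 ± 0.530 to 9.48 ± 0.390 CPM, and CRACR2B, related to a protein that binds ORAI1 and STIM1, rose from 84.0 ± 6.93 to 103.9 ± 2.07 CPM (SD, 3 libraries each; adjusted p from edgeR = 0.0104 and 0.0246). ESYT1, a tether between the endoplasmic reticulum and the plasma membrane, fell from 294 ± 40.7 to 229 ± 17.6 CPM (SD, 3 libraries each; adjusted p from edgeR = 0.0396). The call of HOMER3 was lost without shNSD2 3 (0.0510). Those of CRACR2B (0.0716 to 0.0897) and ESYT1 (0.0859 to 0.158) were lost in 5 of the 6 fits that left out a library, and kept without shCTR 4. With the GC and length correction CRACR2B had a log2 fold change of 0.03 and was not called.

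Binding partners of the TRP members included TCAF1 and TCAF2, which bind TRPM8 and affect its trafficking and gating. Of 6 partners tested, these 2 were called, both lower, which is 33.3% called against 30.7% of all genes tested. With a library left out the list held 0 to 1 higher and 1 to 3 lower members. TCAF1 was at 67.5, 55.3 and 71.2 CPM in shCTR 1, 2 and 4 and at 39.5, 47.7 and 43.0 CPM in shNSD2, a fall from 64.7 ± 8.28 to 43.4 ± 4.10 CPM (SD, 3 libraries each; adjusted p from edgeR = 0.00522). Unlike TRPM8, TCAF1 had its highest level in shCTR 4, and its call held whichever library was left out. TCAF2 fell by 0.84 on the log2 scale from 2.13 CPM (adjusted p from edgeR = 0.0486). Its call was lost without shCTR 1, shCTR 2, shNSD2 1 or shNSD2 3 (0.0793 to 0.138), and in 5 of the 9 other settings.

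Calcium pumps and exchangers were lower for 3 of 8 tested members and higher for 1. ATP2A2, the SERCA2 pump that refills the endoplasmic reticulum, was at 1441, 1215 and 964 CPM in shCTR 1, 2 and 4 and at 769, 776 and 673 CPM in shNSD2. It fell 1.63-fold, from 1206 ± 239 to 740 ± 57.4 CPM (SD, 3 libraries each; adjusted p from edgeR = 0.00732). The plasma membrane pump gene ATP2B1 fell 2.05-fold, from 116.9 ± 24.5 to 57.0 ± 3.07 CPM (SD, 3 libraries each; adjusted p from edgeR = 0.00116). ATP2C2, the secretory pathway pump SPCA2 that can also activate ORAI1, rose from 66.0 ± 6.68 to 91.1 ± 8.76 CPM (SD, 3 libraries each; adjusted p from edgeR = 0.00920). These 3 calls held in every setting run. shCTR 4 stood at 54.3% of the shift for ATP2A2, 40.3% for ATP2B1 and 35.9% for ATP2C2.

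Of 11 tested genes of mitochondrial calcium uptake 2 were higher and 1 lower. SMDT1, the EMRE subunit that the uniporter needs, rose from 26.02 ± 6.81 to 38.5 ± 3.26 CPM, MICU2, a gatekeeper of the uniporter, rose from 99.98 ± 9.94 to 121.8 ± 5.02 CPM, and the related gene MICU3 fell from 6.55 ± 0.880 to 4.79 ± 0.191 CPM (SD, 3 libraries each; adjusted p from edgeR = 0.0219, 0.0434 and 0.0410). The calls of MICU2 (0.0982 to 0.134) and MICU3 (0.0797 to 0.129) were lost in 5 of the 6 fits that left out a library, and kept without shCTR 4. That of SMDT1 was lost without shCTR 1, shCTR 2, shNSD2 1 or shNSD2 3 (0.0568 to 0.0906). No member was called without shCTR 1, shCTR 2, shNSD2 1 or shNSD2 3, and 1 was higher without shNSD2 2. Without shCTR 4, 7 members were higher and 2 lower, and with the GC and length correction 6 were higher and 0 lower.

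Of 4 tested channels opened by calcium 2 were lower. KCNN2, a small-conductance potassium channel gene, was at 92.9, 73.6 and 44.7 CPM in shCTR 1, 2 and 4 and at 32.9, 33.5 and 32.8 CPM in shNSD2, with shCTR 4 at 67.4% of the shift. It fell 2.13-fold (adjusted p from edgeR = 0.00463), also whichever library was left out. The scramblase gene ANO6 fell by 0.66 on the log2 scale (adjusted p from edgeR = 0.0152), a call lost without shCTR 2, shNSD2 2 or shNSD2 3 (0.0552 to 0.0697).

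Downstream of calcium, 8 of 20 tested genes of calmodulin, calcineurin, NFAT and the calmodulin-dependent kinases were called, 5 higher and 3 lower. CAMK2D, the delta chain of CaM kinase II, was at 47.8, 38.5 and 45.8 CPM in shCTR 1, 2 and 4 and at 16.1, 19.5 and 17.7 CPM in shNSD2. It fell 2.48-fold, from 44.03 ± 4.89 to 17.8 ± 1.72 CPM (SD, 3 libraries each; adjusted p from edgeR = 1.99e-04), with shCTR 4 at -7.32% of the shift. The beta chain gene CAMK2B went the other way, from 4.54 ± 0.756 to 8.91 ± 0.470 CPM (SD, 3 libraries each; adjusted p from edgeR = 0.00208). RCAN2, a regulator of calcineurin, had 14, 15 and 13 counts in shCTR and 0, 3 and 3 counts in shNSD2 (adjusted p from edgeR = 0.00553), so no size is given for its fall. These 3 calls held in every setting that gave a value. Counts over the list ran from 2 to 7 higher, and from 2 to 4 lower, when 1 library was omitted.

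**Figure D5:**
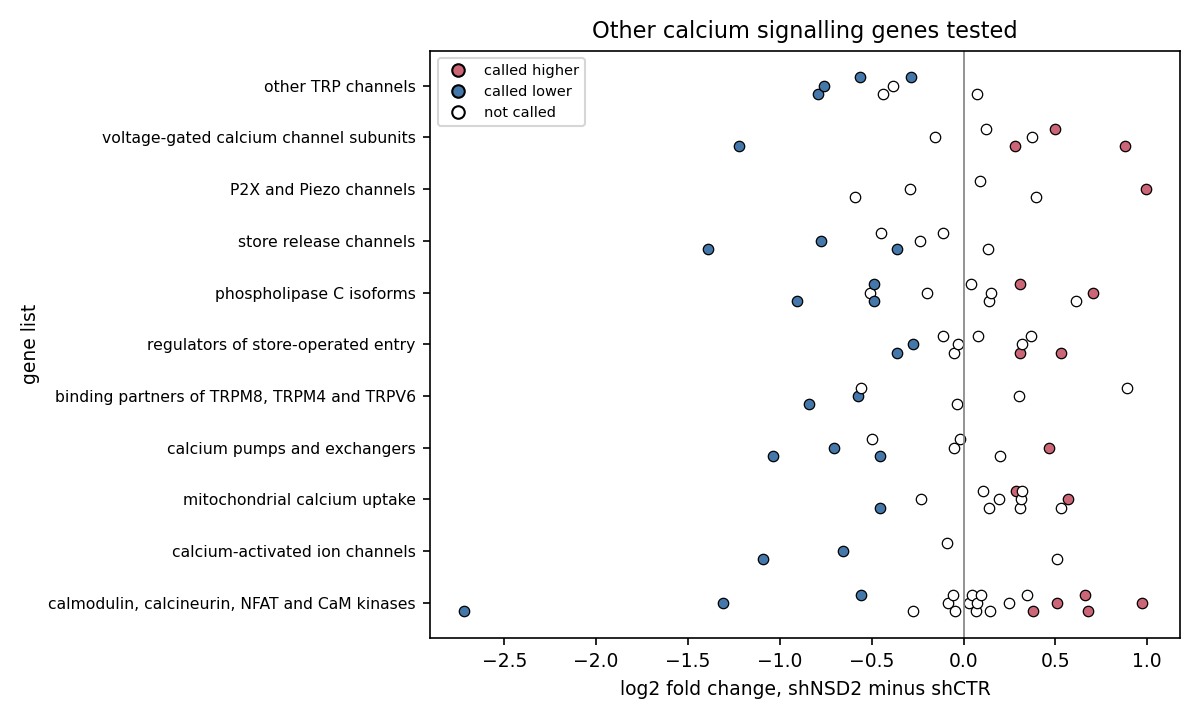
Log2 fold change (shNSD2 minus shCTR) of the 96 tested genes of the 11 calcium lists, 1 point per gene, coloured where edgeR called it higher (16 genes) or lower (24 genes). The leftmost point is RCAN2, whose shNSD2 libraries hold at most 3 counts, so its position depends on the prior count of the fit.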

How the data were processed

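The authors deposited raw read counts per gene with Ensembl identifiers and symbols; the values are whole and library totals differ. Per the submitters' processing notes, CASAVA 1.8.2, STAR 2.6.0a and GRCh38 were used. How reads were assigned to genes, on which annotation and with what strand setting, is not given in the sources used here. Overlapping and antisense genes may therefore share reads. Titles gave the groups. The test was that of edgeR 4.0.16 under R 4.3.3 (filterByExpr by group, TMM, glmQLFit and glmQLFTest, no covariate), with Benjamini-Hochberg adjustment over the 17160 genes that passed the filter. Each SE is the log2 fold change divided by the root of its F statistic. GENCODE 29 (GRCh38) gave coordinates, exon lengths and GC content for 31313 identifiers. The fit was tested on simulated data with the same dispersion for every gene and no outlying library. That test therefore does not cover the spread that shCTR 4 brings.

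The members and lists were chosen with earlier results of these data known. Named genes are the 10 members, NSD2, from each list the 3 called genes of smallest p, and the 5 genes most like TRPM8. Genes named outside this rule (AC135048.1, ALKBH4, TRPV5, RYR1 and the markers) were added to describe overlaps, identity or small counts. Alternatives were other scaling factors, DESeq2 1.42.0, limma-voom (limma 3.58.1), other filters, the replicate number as a block, a smooth correction for GC content and exon length per library, and each library left out. Some markers and 1 further list are not reported here. Floors of 3 counts (0.145 to 0.156 CPM) cover counting error only.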

Additional observations from a re-analysis of the deposited data

How the results depend on the processing

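Of the 4 called members, TRPM8, STIM2 and ORAI3 kept direction and call in all 15 alternatives, and TRPM7 lost its call in 5. The count of called members was 3 or 4 throughout. The log2 fold change of ORAI1 turned negative with the GC and length correction (-0.15) and ran from -0.034 (without shCTR 2) to 0.22 (without shCTR 4) with a library left out, and that of TRPV6 turned positive with the correction (0.0041). The cause was not tested. With a library left out, genes called over all genes ranged from 2436 to 8262 against 5263, and wider calcium genes called from 18 to 62 against 40, the highest in both cases without shCTR 4. Fewer libraries lower the power, yet counts rose without shCTR 4. With the replicate block, 6243 genes, 4 members and 50 wider calcium genes were called. In that fit shCTR 4 and shNSD2 3 are each alone in their block. Its contrast therefore rests on the libraries numbered 1 and 2, without shCTR 4. Only numbers 1 and 2 occur in both groups. Deviations of same-numbered libraries correlated at -0.03 and -0.09, and those of differently numbered libraries at -0.22 to 0.26. With so few pairs, these values cannot show whether the numbers pair the libraries. Of 29 named wider calcium genes, 14 kept their call in every setting that gave a value, while P2RX2 lost it under the replicate block. TRPC1, left out by the low-count filter, had a log2 fold change of -1.03 without the filter, not called, and of -1.05 with DESeq2, which gave it no adjusted p.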
